A study of Rattus norvegicus with 12 samples.

Results

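Heat shock proteins, the J-domain proteins that work with them, the BAG co-chaperones and the heat shock factors were examined in RNA-seq of left atrial tissue from rats. The members were all genes with counts whose symbol begins with Hsp and letters followed by a number, or is a numbered Dnaja, Dnajb, Dnajc, Bag or Hsf gene. This gave 82 members of 21239 genes with counts. They comprised 13 HSP70 and HSP110 chaperones, 3 HSP90 chaperones, 8 genes named as small heat shock proteins, 2 subunits of the mitochondrial chaperonin, 43 J-domain proteins, 6 BAG co-chaperones, 4 heat shock factors and 3 genes whose names alone matched. Of the last, Hspg2 encodes perlecan, a matrix proteoglycan and not a chaperone, while Hspbp1 and Hspbap1 encode binding partners of heat shock proteins. Hspb11 was counted with the small heat shock proteins by its name alone, and is now named Ift25.

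The rats were 14 weeks old when bought and were treated for 4 weeks, with 3 libraries in each of 4 groups. Normotensive Wistar-Kyoto rats (WKY group) and spontaneously hypertensive rats (SHR group) received saline at 7.5 ml/kg/d. SHRs of the ARB-treated group received valsartan, an angiotensin receptor blocker, at 30 mg/kg/d, and SHRs of the ARNI-treated group received sacubitril/valsartan, which adds a neprilysin inhibitor, at 60 mg/kg/d. For the 6 libraries of rats given saline, the title names the other strain than the name of the library does. The libraries were grouped by name, so the direction of every difference between SHR and WKY rests on those names. The labels of the SHR groups that received drugs also name the Wistar-Kyoto strain beside a hypertensive phenotype.

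HSP70 chaperones hold unfolded stretches of protein in a cycle driven by ATP. J-domain proteins deliver clients and start ATP hydrolysis, BAG proteins and HSP110 exchange the nucleotide, and HSP90 completes the folding of kinases and receptors. Small heat shock proteins bind unfolding clients without ATP, and in heart muscle several of them sit with Bag3 at the sarcomere. Heat shock factor 1 binds heat shock elements, arrays of inverted nGAAn units, and induces many of these genes when proteins unfold.

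The 12 libraries held 11252345 to 15823511 counts, and levels are given as CPM, the count of a gene scaled to a common library total. A gene with a count of 0 could hold up to 3 reads, or 0.190 to 0.267 CPM. This bound covers counting error alone. Several libraries stood apart. The ventricular myosin light chain Myl2 was at 3489 to 3776 CPM in WKY and at 2298, 2573 and 4161 CPM in SHR replicate 2, ARB replicate 3 and ARNI replicate 2, against at most 24.2 CPM in the other 6 libraries. The summed level of 7 atrial markers was 66.6 to 289 CPM in WKY and 82.4 CPM in ARNI replicate 2, against 27699 to 77098 CPM in the other 8. Of these markers, Myl7, Myl4, Nppa, Sln and Mybphl were lower in every WKY library and in ARNI replicate 2 than in those 8. Kcna5 tended the other way. It was at 7.13 to 14.2 CPM in WKY and 8.18 CPM in ARNI replicate 2. In those 8 libraries it was at 0.992 to 7.85 CPM. Bmp10 was low in WKY but also at only 1.02 CPM in SHR replicate 3. Apart from Kcna5, the atrial markers were therefore low in all WKY libraries. Chamber and group cannot be told apart in the comparison of SHR with WKY. The summed level of 7 stress-induced early genes, among them Fos and Atf3, was 3472 CPM in SHR replicate 3 and 1272 CPM in ARNI replicate 3, against 242 to 495 CPM in the other 10 libraries.

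Because many of these genes are known targets of heat shock factor 1, their promoters are shown before their levels. Of the 82 members, 66 had a promoter window in RefSeq (build GRCr8, 250 bases before to 50 after the annotated start). The 2-unit heat shock element GAANNTTC or TTCNNGAA, each of which reads the same on both strands, occurred in 16 of the 66 members with a window (24.2%) and in 16.7% of 27457 genes. The 3-unit form, in which a GAA or TTC unit of the next orientation follows the 2-unit form after any pair of bases, occurred in 5 members (7.58%; Dnaja1, Hspa8, Hspd1, Hspe1 and Hsph1) and in 0.794% of all genes. The stretches below, in the direction of each gene, were chosen because they hold the 3-unit form or belong to genes described in detail below, and capitals mark the element.
Hspa8, -70 to -28 from the start, chr8:50080444-50080486, plus strand: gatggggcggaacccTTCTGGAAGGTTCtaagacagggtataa
Hsph1, -51 to -9, chr12:10427317-10427359, plus strand: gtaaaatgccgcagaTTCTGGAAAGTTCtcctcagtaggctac
Hspe1, -80 to -33, chr9:64084247-64084294, plus strand: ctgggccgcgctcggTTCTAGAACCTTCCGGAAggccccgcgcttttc
Hspd1, -250 to -210, chr9:64084247-64084287, minus strand: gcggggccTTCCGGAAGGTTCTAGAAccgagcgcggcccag
Hspb1, -144 to -87, chr12:26432388-26432445, minus strand: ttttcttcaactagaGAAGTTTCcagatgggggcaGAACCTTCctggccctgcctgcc
Dnajb1, -26 to -1, chr19:41431142-41431167, minus strand: gcatcgggaggggcgGAAGGTTCtgg
Hspb6, -164 to -127, chr1:94934208-94934245, plus strand: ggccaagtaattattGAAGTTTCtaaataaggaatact
Bag3, -147 to -110, chr1:192533313-192533350, plus strand: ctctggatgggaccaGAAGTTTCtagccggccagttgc

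Hspd1 and Hspe1 encode the large and the small subunit of the mitochondrial chaperonin, and their windows overlap on opposite strands, so that both stretches show the same element. Of the 13 heat-inducible cytosolic members, 11 had a window and 8 of these held the 2-unit element, among them Hspa8, Hsph1, Hspb1, Dnajb1 and Bag3. A match of letters is a description of the window and does not show binding.

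**Figure D1:**
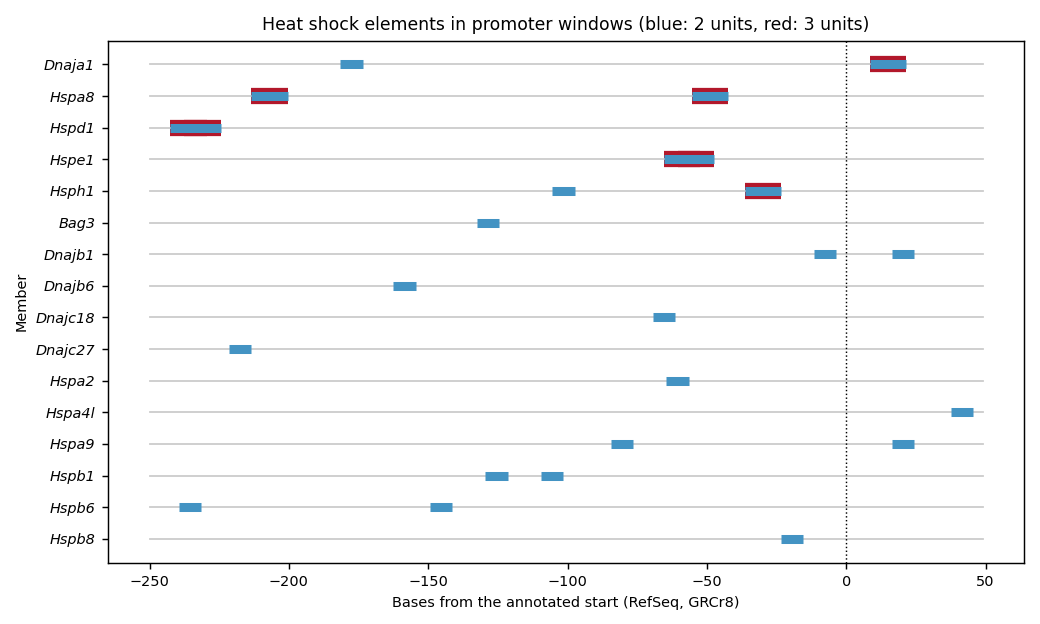
Positions of heat shock elements in the promoter windows of the 16 members that hold any, in bases from the annotated start (x axis), 1 member per line. Blue bars are 2-unit elements and red bars are 3-unit elements, which occur in the 5 members drawn at the top.

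The first question was how the members differed between the hypertensive and the normotensive strain. Of the 82 members, 77 passed the filter on low counts. Dnajb8 had no read in any library, and Dnajb7, Hspb9 and Hsf5 stayed at or below 0.506 CPM in every library. Dnajc6, which encodes auxilin, a J-domain protein of clathrin uncoating, was at 5.63 CPM in ARNI replicate 3 and at most 0.533 CPM elsewhere, and was singled out after its values were seen. ARNI replicate 3 also had the highest summed level of neuron and Schwann cell markers (236 CPM, against 24.3 to 98.2 CPM in the other 11 libraries), whose part in the Dnajc6 value was not tested.

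Compared with the WKY group, the SHR group had 5 members higher and 10 lower at an adjusted p of at most 0.05 (edgeR's quasi-likelihood test, Benjamini-Hochberg adjustment over 13794 genes). The shares among the members tested were 6.49% higher and 12.99% lower, and among all genes tested 12.3% were higher and 8.26% lower. Those higher were Hspb3, Bag2, Hsf2, Dnajc27 and Dnajc14, and those lower were Dnajc28, Hspa9, Dnaja3, Bag3, Dnajc11, Dnajc7, Dnajc16, Dnajb6, Dnajb5 and Hsf1. The study's thresholds also ask for a log2 fold change of 1 or more in size. At these, edgeR gave only Hspb3 as a DEG that rose and only Dnajc28 as a DEG that fell, against 5.54% and 3.35% of all genes. The study itself used DESeq2. By DESeq2, Dnajb1 (log2 fold change 1.02, adjusted p = 0.0112) and Hspb6 (-1.43, adjusted p = 0.0019) also passed both thresholds. The median log2 fold change of the members was -0.09, with 33 of 77 above 0, and that of all genes was 0.01, with 51.3% above 0. In bulk tissue, fewer cells of a type and less RNA per cell cannot be told apart.

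The number of members called rested on single libraries and on the scaling. Without WKY replicate 1, 2 or 3 no member was called by the same test, although 23, 25 and 20 members had an unadjusted p under 0.05, and 496, 415 and 418 genes were called in place of 2837. Without SHR replicate 1 there were 3 (Bag2, Dnajc7 and Hspb3), without SHR replicate 3 there were 10, and without SHR replicate 2, the SHR library with Myl2, there were 29, of which 8 were higher and 21 lower and which included all 15. Of all genes, 961, 2505 and 5310 were called in these settings, in the same order, so the member count moved with that of all genes. Scaling by library totals alone called 17 members, of which 9 were higher and 8 lower, and 3427 of all genes. It moved the median of all genes from 0.01 to 0.15. It lost Dnajb5 and Hsf1 and added Dnaja1, Dnajb9, Dnajc12 and Hspb2. DESeq2 called 23 members, 6 higher and 17 lower (29.5%, against 23.2% of all genes).

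**Figure D2:**
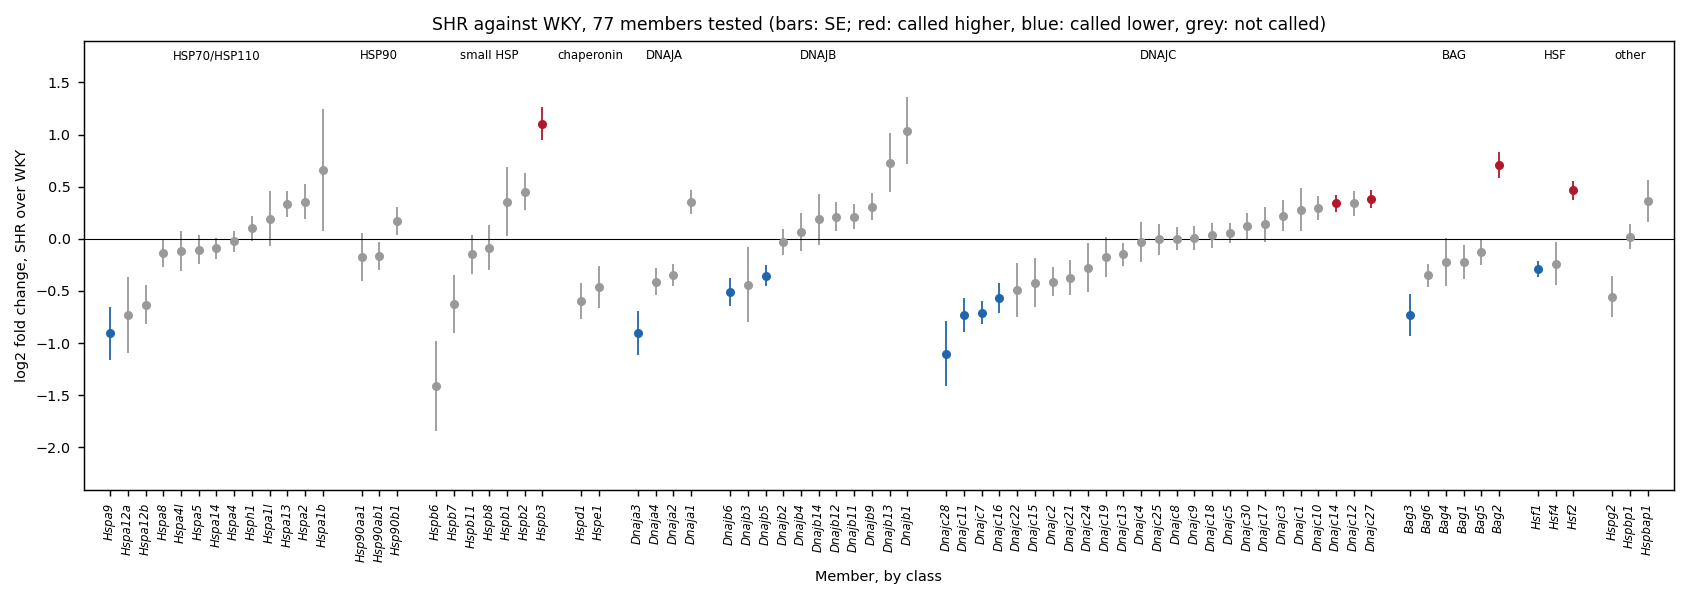
Log2 fold change of SHR over WKY (y axis) for the 77 members tested, grouped by class and ordered by value within a class, with the SE as bars. Red points were called higher, blue points lower and grey points were not called; Hspb6 at -1.41 is the lowest value and was not called by edgeR, and its SE of 0.43 is wide.

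Among the small heat shock proteins, Hspb3, which is expressed mainly in muscle, rose in SHRs. It was at 26.9, 26.6 and 25.5 CPM in WKY, 69.9, 45.1 and 72.8 CPM in the SHR libraries, 93.8, 65.0 and 57.3 CPM in the ARB libraries and 93.1, 28.0 and 68.5 CPM in the ARNI libraries. All SHR libraries lay above all WKY libraries, and the lowest values among SHRs of each group belonged to the 3 libraries with Myl2. SHR over WKY had a log2 fold change of 1.10 (SE 0.16, edgeR adjusted p = 0.00896).

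Hspb6, a small heat shock protein that is phosphorylated by protein kinase A in heart muscle, showed the opposite order, and whether it was called depended on the test. It was at 2921, 2754 and 3099 CPM in WKY, 735, 1997 and 826 CPM in SHR, 835, 708 and 1960 CPM in ARB and 703, 2618 and 1396 CPM in ARNI. The WKY libraries were the highest of all, and SHR replicate 2, ARB replicate 3 and ARNI replicate 2 stood above the other libraries of SHRs. With all 6 libraries SHR over WKY had a log2 fold change of -1.41 (SE 0.43, edgeR adjusted p = 0.0591), and DESeq2 gave -1.43 with an adjusted p of 0.00190. By edgeR without SHR replicate 2 it was -2.08 (SE 0.11, adjusted p = 8.33e-05).

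Hspb7, a cardiovascular small heat shock protein of the sarcomere, was at 2542, 2581 and 2948 CPM in WKY and at 1570, 2593 and 1514 CPM in SHR. In CPM, SHR replicate 2 lay inside the WKY range and the other SHR libraries below it (log2 fold change -0.63, SE 0.28, adjusted p = 0.144; without that library -0.97, adjusted p = 0.00161). On CPM scaled by TMM factors (TMM-scaled CPM) the groups did not overlap for Hspb7. Hspb8, the partner of Bag3, overlapped between the groups, at 415 to 475 CPM in WKY and 332 to 509 CPM in SHR (log2 fold change -0.08, SE 0.22, adjusted p = 0.797). Of the 7 genes tested that are named as small heat shock proteins (Hspb11 among them), edgeR called Hspb3 higher and none of the other 6. DESeq2 also called Hspb6, and edgeR with library totals also called Hspb2.

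**Figure D3:**
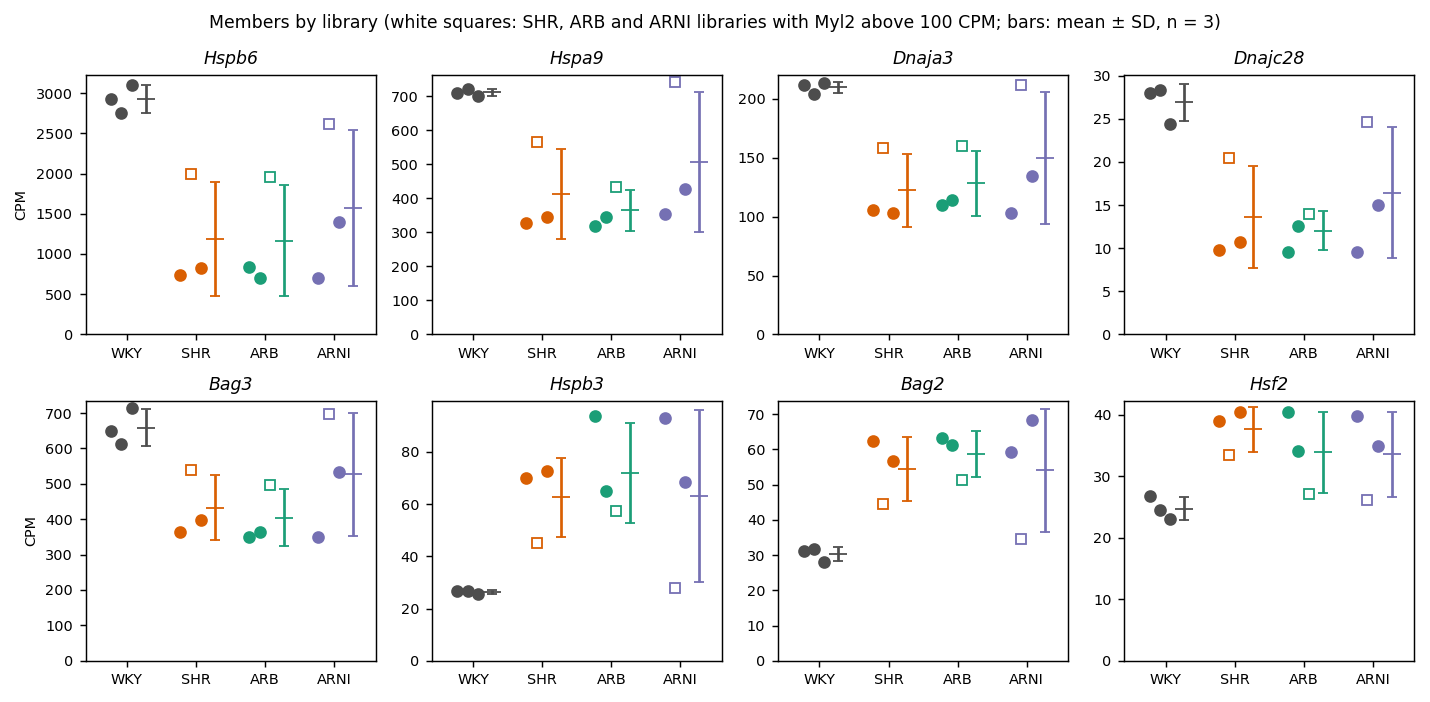
CPM (y axis, from 0) of 8 members in each of the 12 libraries by group, with the mean and SD of each group (n = 3). White squares are the SHR, ARB and ARNI libraries with Myl2 above 100 CPM; in Hspb6, Hspa9, Dnaja3, Dnajc28 and Bag3 they lie nearest to the WKY libraries within their groups, and in Hspb3, Bag2 and Hsf2 they are the lowest of their groups.

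Mitochondrial genes made up 4 of the 10 members that fell in SHRs. Of the 9 mitochondrial chaperones and J-domain proteins, 4 fell by edgeR (Hspa9, Dnaja3, Dnajc28 and Dnajc11) and none rose, against 8.26% and 12.3% of all genes. DESeq2 called 5 of them, Hspd1 in addition, and 8 had a log2 fold change below 0. Their median log2 fold change was -0.60, against 0.01 for all genes. Each of the 4 was also called without SHR replicate 2, the SHR library nearest to WKY for these genes. Without SHR replicate 3 only Dnajc11 was called. None of them was called without SHR replicate 1 or without WKY replicate 1, 2 or 3. The same held in a fit with the replicate numbers as a block and in 1 fit of all 12 libraries.

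Hspa9, the HSP70 of the mitochondrial matrix that pulls proteins through the inner membrane, was at 710, 722 and 700 CPM in WKY, 327, 564 and 344 CPM in SHR, 317, 345 and 432 CPM in ARB and 355, 740 and 427 CPM in ARNI. No SHR library reached the WKY range, and ARNI replicate 2 exceeded it. SHR over WKY had a log2 fold change of -0.91 (SE 0.25, edgeR adjusted p = 0.0483). Its J-domain partner Dnaja3 was at 212, 204 and 213 CPM in WKY and 106, 158 and 103 CPM in SHR, also without overlap (log2 fold change -0.90, SE 0.21, adjusted p = 0.0317).

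Dnajc28, a little-studied J-domain protein, was at 28.0, 28.3 and 24.4 CPM in WKY and 9.76, 20.4 and 10.7 CPM in SHR (log2 fold change -1.10, SE 0.31, adjusted p = 0.0498). Dnajc11, which is bound to the complex that shapes the cristae, was at 61.5, 67.5 and 73.7 CPM in WKY and 41.2, 52.2 and 39.9 CPM in SHR (log2 fold change -0.73, SE 0.16, adjusted p = 0.0274). In both genes SHR replicate 2 was the SHR library closest to WKY.

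Hspd1 was at 385, 395 and 377 CPM in WKY and 236, 337 and 262 CPM in SHR, which did not overlap (log2 fold change -0.60, SE 0.17). By edgeR it missed the threshold (adjusted p = 0.0534), while RLE scaling (adjusted p = 0.0472) and DESeq2 (adjusted p = 0.00766) called it. Hspe1 overlapped, with 70.8 CPM in SHR replicate 2 beside 64.8 to 72.8 CPM in WKY (log2 fold change -0.46, SE 0.21, adjusted p = 0.144). Without SHR replicate 2 the adjusted p was 0.000925 for Hspd1 and 0.00214 for Hspe1. Mitochondrial proteases and chaperones with other names gave a like count, with 3 of 10 lower (Clpx, Trap1 and Clpb), none higher and a median of -0.66. Of all genes, 8.26% were lower and 12.3% higher.

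Of the 9 chaperones and J-domain proteins listed for the endoplasmic reticulum, edgeR called none in either direction. Among them, 7 had a log2 fold change above 0, and the median was 0.22. By edgeR 3 of them (Dnajb9, Dnajc10 and Hspa13) had an unadjusted p under 0.05, as had 39.4% of all genes, and DESeq2 called 0. Dnajb9 was called with library totals, and Dnajc10 and Hspa13 were called higher without SHR replicate 2 (adjusted p = 0.0216 and 0.0312). Hspa5, the HSP70 of this compartment, was at 574, 739 and 630 CPM in WKY and 671, 642 and 673 CPM in SHR, which overlapped (log2 fold change -0.10, SE 0.13, adjusted p = 0.596). Dnajb9, an inducible co-chaperone of Hspa5, was at 46.0, 53.4 and 60.1 CPM in WKY and 74.2, 72.4 and 69.9 CPM in SHR (log2 fold change 0.31, SE 0.13, adjusted p = 0.127). For Dnajb9 the groups did not overlap in CPM but did on TMM-scaled CPM. Among 16 folding and unfolded protein response genes that are no members, 4 rose (Atf6, Creld2, Pdia6 and Xbp1), Hyou1 fell and the median was 0.28. Of all genes, 12.3% rose and 8.26% fell, with a median of 0.01.

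Of the 6 BAG co-chaperones, 1 rose and 1 fell, against 12.3% and 8.26% of all genes. Bag3, which joins HSP70 to small heat shock proteins and directs damaged sarcomere proteins to autophagy, was at 649, 614 and 715 CPM in WKY, 363, 538 and 397 CPM in SHR, 351, 364 and 497 CPM in ARB and 348, 697 and 534 CPM in ARNI. The SHR and ARB libraries all lay below the WKY libraries, while ARNI replicate 2 lay within them. SHR over WKY had a log2 fold change of -0.73 (SE 0.20, edgeR adjusted p = 0.0464).

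Bag2, which restrains the ubiquitin ligase CHIP on HSP70, was at 31.3, 31.7 and 28.0 CPM in WKY and 62.3, 44.5 and 56.6 CPM in SHR (log2 fold change 0.70, SE 0.12, adjusted p = 0.0151). Bag2 and Dnajc7 were the 2 members called in every setting tried except those that left out a WKY library.

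The heat shock factors moved in opposite directions. Hsf2 was at 26.8, 24.4 and 23.0 CPM in WKY and 39.0, 33.4 and 40.4 CPM in SHR (log2 fold change 0.47, SE 0.09, adjusted p = 0.0206). Hsf1, the factor that answers to heat, was at 50.4, 47.0 and 45.6 CPM in WKY and 42.4, 41.3 and 44.6 CPM in SHR, a narrow gap (log2 fold change -0.29, SE 0.08, adjusted p = 0.0429). Hsf4 was not called.

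Among the other J-domain proteins, Dnajc7, which binds HSP70 and HSP90 through its tetratricopeptide repeats, was at 100, 105 and 103 CPM in WKY and 65.9, 74.7 and 66.3 CPM in SHR (log2 fold change -0.71, SE 0.11, adjusted p = 0.0115). Dnajb6, a suppressor of aggregation that is found at the Z-disc, was at 98.1, 93.6 and 102 CPM in WKY and 73.2, 84.2 and 67.8 CPM in SHR (log2 fold change -0.51, SE 0.14, adjusted p = 0.0428). Both were lower in every SHR library than in any WKY library. Dnajc16 fell by 0.57 on the log2 scale (SE 0.14, adjusted p = 0.0369). Dnajc27, a Rab-like GTPase with a J-domain, rose by 0.38 (SE 0.08, adjusted p = 0.0266), and Dnajc14 rose by 0.34 (SE 0.08, adjusted p = 0.0318). Dnajc14 is also a membrane protein of the endoplasmic reticulum but was not in the list above.

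The cytosolic heat-inducible chaperones had values on both sides of 0. Of 13 tested, edgeR called Bag3 lower and none of the other 12, and 6 had a log2 fold change above 0, with a median of -0.03. DESeq2 called 2 of them, Bag3 lower and Dnajb1 higher, and edgeR with library totals called Bag3 and Dnaja1. Hspa8, the constitutive HSP70, was at 1086, 1242 and 1095 CPM in WKY and 1123, 1095 and 1198 CPM in SHR (log2 fold change -0.14, SE 0.13, adjusted p = 0.448). Hsp90ab1 was at 1547, 1655 and 1640 CPM in WKY and 1582, 1448 and 1730 CPM in SHR (log2 fold change -0.16, SE 0.13, adjusted p = 0.393). For both of these genes the groups overlapped in CPM but not on TMM-scaled CPM.

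Dnajb1, the classical J-domain partner of the inducible HSP70, was at 33.2, 32.9 and 24.4 CPM in WKY and 45.3, 51.2 and 111 CPM in SHR. All SHR values were above all WKY values, but SHR replicate 3 was far above the others (log2 fold change 1.04, SE 0.32, adjusted p = 0.0617; without that library 0.59, adjusted p = 0.0523). DESeq2 gave 1.02 with an adjusted p of 0.0112. Hspg2, with many reads but no chaperone function, was at 652, 698 and 711 CPM in WKY and 458, 390 and 706 CPM in SHR (log2 fold change -0.56, SE 0.20, edgeR adjusted p = 0.0855). DESeq2 called Hspg2, and so did edgeR without SHR replicate 3. The groups did not overlap for 18 members that were higher in SHR (33.7% of all genes) and 15 that were lower (15.9% of all genes), or 23.4% and 19.5% of the members tested. On TMM-scaled CPM 35 members did not overlap (45.5%, against 47.4% of all genes). The chaperonin TRiC had 0 of 8 subunits called by edgeR (1 at an unadjusted p under 0.05, Cct8, which DESeq2 called). Of 16 co-chaperones with other names 3 fell (Chordc1, Fkbp5 and Ppid) and none rose, against 8.26% and 12.3% of all genes.

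Members were also compared by the chamber markers inside the 9 libraries of SHRs. In the 3 libraries with Myl2, 9 members were above all of the other 6 (11.7%, against 9.37% of all genes), and 16 were below all of them (20.8%, against 17.9% of all genes). These shares were near those of all genes, so they say nothing particular of the members. The higher members included Hspb6, Hspa9, Dnaja3, Dnajc7 and Bag1. The lower members included Hspb3, Bag2, Hsf2, Dnajc14, Hspa5 and Hsp90b1. These libraries were set apart by Myl2 and not by treatment, and no test was made. Of the 15 members called between SHR and WKY, 13 had a value in ARNI replicate 2 nearer to the WKY mean than to the mean of SHR replicates 1 and 3 (86.7%, against 76.7% of all genes called), and Dnajc7 and Dnajc27 did not. The part of chamber composition in the difference between SHR and WKY cannot be told apart from strain.

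Several heat-inducible members stood out in the 2 libraries with high early genes. ARNI replicate 3 had the highest value of the 12 libraries for 27 of 77 members (35.1%, against 10.3% of all genes). SHR replicate 3, where the early genes were higher still, had the highest value for 7 of 77 (9.09%, against 20.8% of all genes). Hspa1b, an HSP70 that is hardly made without stress, was at 9.63 CPM in ARNI replicate 3 and 7.59 CPM in SHR replicate 3, against 0 to 4.40 CPM in the other 10 libraries, where a count of 0 in ARB replicate 1 allows up to 0.198 CPM. The identifier of this gene is named Hspa1a in build GRCr8. No other row stands for the near-identical pair Hspa1a and Hspa1b, so reads of the pair cannot be told apart.

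Hspb1, which protects actin filaments, was at 727 CPM in ARNI replicate 3 and 450 CPM in SHR replicate 3, against 174 to 255 CPM in the other 10. Relative to the median of those 10 libraries, ARNI replicate 3 was at 4.20 times for Hspa1b, 3.53 for Hspb1, 2.17 for Hsp90aa1, 1.84 for Dnaja1, 1.71 for Hsph1 and 1.50 for Hspa8. SHR replicate 3 was at 3.31 times for Hspa1b, 2.50 for Dnajb1 and 2.19 for Hspb1, but at 1.12 for Hsp90aa1 and 0.996 for Hspa8. Of the other heat-inducible members in ARNI replicate 3, Dnajb4 was at 1.52, Hspa4 at 1.39, Dnajb1 at 1.37 and Hsp90ab1 at 1.19 times. The lowest ratios there were those of Hspa4l at 1.14, Hspb8 at 1.06 and Bag3 at 1.03 times. In SHR replicate 3, Hspb8 was at 0.686 and Bag3 at 0.767 times. The libraries thus shared high Hspa1b and Hspb1, while Dnajb1 was higher in SHR replicate 3 and Hsp90aa1 in ARNI replicate 3. Dnaja1, Hsph1, Dnajb4 and Hspa4 were also above the median in both, at 1.34, 1.35, 1.32 and 1.24 times in SHR replicate 3. For Dnaja1 and Dnajb4 the value of SHR replicate 3 lay within the range of the other 10 libraries. The windows of Hspb1, Dnajb1, Hspa8 and Hsph1 hold the 2-unit element, and so do those of Bag3, Hspb8 and Hspa4l. Hspa1b, with the highest ratio in both libraries, has a window without the element. Of the 27 members highest in ARNI replicate 3, 20 had a window and 7 of these held the 2-unit element (35.0%), against 9 of 41 (22.0%) of the other members tested. These 27 were picked by the values of ARNI replicate 3, and the difference in shares was not tested. The same libraries stood apart in markers of other cell types. In ARNI replicate 3 the 4 smooth muscle markers summed to 682 CPM, against 101 to 204 CPM in the other 11 libraries, and the 5 adipocyte markers to 391 CPM, against 361 CPM in ARB replicate 2 and at most 15.3 CPM elsewhere. In SHR replicate 3 the 7 fibroblast markers summed to 4858 CPM, against 1263 to 3264 CPM in the other 11. The part of the early genes and of these cell types in the values was not tested.

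**Figure D4:**
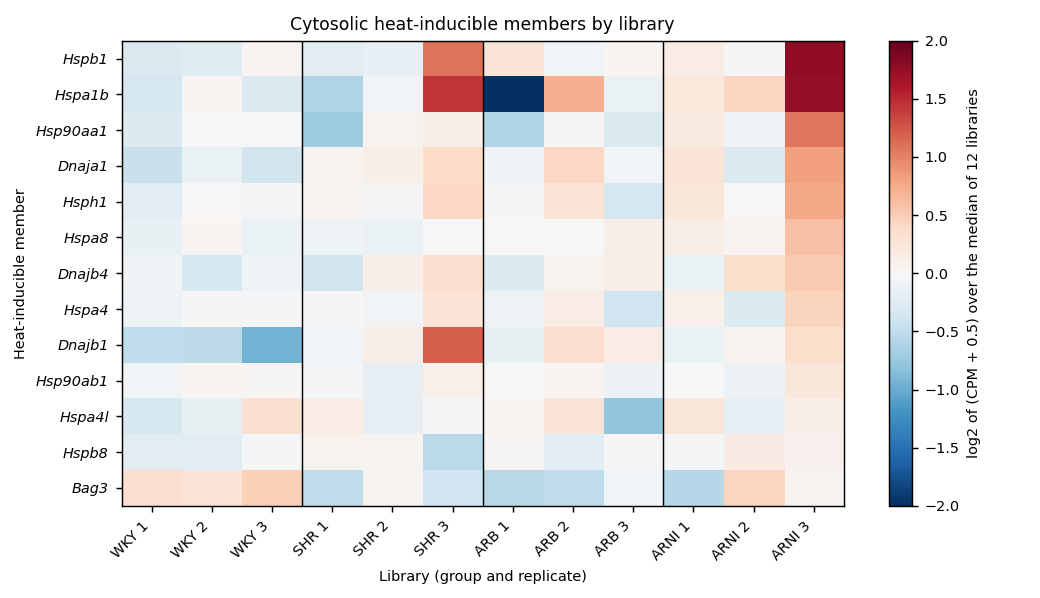
Heat map of the 13 heat-inducible cytosolic members (rows) in the 12 libraries (columns, black lines between groups), as log2 of CPM plus 0.5 relative to the median of the 12 libraries, ordered by ARNI replicate 3. Red is above the median: Hspb1 and Hspa1b are reddest in ARNI replicate 3 and SHR replicate 3, and Dnajb1 is highest in SHR replicate 3; the dark blue cell is the count of 0 for Hspa1b in ARB replicate 1.

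The next comparisons asked whether either drug moved the members in SHRs. Between the ARB and SHR groups edgeR called no member and no gene (0% of 13979), and DESeq2 called 0 members. By edgeR no member had an unadjusted p under 0.05, as 1.61% of all genes did. The largest differences were those of Hspa1b (log2 fold change -0.75, SE 1.14), Dnajb13 (-0.64, SE 0.27) and Dnajb1 (-0.37, SE 0.32), all with an edgeR adjusted p of 0.9999. For Hspa1b and Dnajb1 they rested on SHR replicate 3, without which they were 0.16 and 0.08. The value of Hspa1b rested also on ARB replicate 1, where its count was 0, and was -0.16 without that library. No member was higher in all ARB libraries than in all SHR libraries (2.4% of all genes), and Dnajb13 and Hspbap1 were lower in all of them (2.60%, against 2.99% of all genes). On TMM-scaled CPM 5 members did not overlap, in either direction (6.49%, against 6.12% of all genes). The median log2 fold change of the members was -0.01.

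Between the ARNI and SHR groups edgeR again called no gene (0% of 13955). Here 3 members had an unadjusted p under 0.05 (Dnajb5, Hsf1 and Hspa1l), or 3.90%, against 1.63% of all genes. DESeq2 called 1 member, Dnajb5, among 9 genes. Dnajb5 encodes a cytosolic J-domain protein that in heart muscle is known for a redox-sensitive complex with the histone deacetylase Hdac4. It was at 111, 101 and 116 CPM in WKY, 89.8, 87.6 and 106 CPM in SHR, 152, 87.1 and 96.4 CPM in ARB and 159, 183 and 223 CPM in ARNI. The ARNI libraries were the highest 3 of the 12, while ARB replicate 1 came close to them and the other ARB libraries lay among the SHR values. In order of their means, SHR was at 94.3 ± 9.82 CPM, WKY at 109 ± 7.74 CPM, ARB at 112 ± 35.1 CPM and ARNI at 188 ± 32.3 CPM (SD, n = 3), and the neighbours SHR and WKY, and WKY and ARB, overlapped.

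The log2 fold change of Dnajb5 for ARNI over SHR was 1.08 (SE 0.16, edgeR adjusted p = 0.999), a difference of 2.11-fold in the fit. DESeq2 gave 1.10 with an adjusted p of 1.62e-05. Over the other edgeR settings the log2 fold change stayed between 0.996 and 1.21 and the adjusted p between 0.822 and 0.99998. The direction of this difference therefore did not rest on 1 library, and its call depended on the test. Dnajb5 was the gene given as the marker of the set, chosen with this difference known. Between SHR and WKY it was lower (log2 fold change -0.35, SE 0.10, edgeR adjusted p = 0.0492), although SHR replicate 3 in CPM lay inside the WKY range. On TMM-scaled CPM the SHR and WKY libraries did not overlap for Dnajb5.

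Over the 12 libraries, which share the strains, chambers and depths described above, the members whose log2 CPM followed Dnajb5 most closely were Hspa1l (Pearson's r = 0.76), Hspa8 (0.75) and Dnajb2 (0.74), as a description. Hspa1l, an HSP70 that is expressed mainly in testis, was at 8.02, 9.62 and 8.26 CPM in SHR and 10.9, 9.75 and 19.5 CPM in ARNI. ARNI replicate 3 was far above the others and ARNI replicate 2 barely above the highest SHR library (log2 fold change 0.69, SE 0.27, edgeR adjusted p = 0.999). Hsp90aa1, the stress-inducible cytosolic HSP90, was at 141, 241 and 252 CPM in SHR and 261, 221 and 487 CPM in ARNI, which overlapped (log2 fold change 0.66, SE 0.34, adjusted p = 0.999).

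Hsf1 was at 49.3, 47.1 and 51.0 CPM in ARNI, above its 41.3 to 44.6 CPM in SHR and within the 45.6 to 50.4 CPM of WKY but for ARNI replicate 3 (log2 fold change of ARNI over SHR 0.28, SE 0.10, adjusted p = 0.999). With Dnajb5, Hspa1l and Hspa8 it was 1 of 4 members higher in all ARNI than in all SHR libraries (5.19%, against 1.37% of all genes). No member was lower in all of them, as 5.19% of all genes were. On TMM-scaled CPM 7 members did not overlap, in either direction (9.09%, against 6.09% of all genes). In CPM, 19 members were higher in ARNI than in SHR within each of the 3 same-numbered pairs of libraries (24.7%, against 7.83% of all genes), among them Dnajb4, Hspb7, Dnajc11 and Hspa9, and 7 were lower in each (9.09%, against 22.5% of all genes). The labels do not pair these rats, and the libraries were matched by number alone. This count was chosen after the data were seen, and the fit with the replicate block called no member.

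Of the 77 members, 62 had a log2 fold change of ARNI over SHR above 0, against 50.7% of all genes, and their median was 0.16, against 0.00. None of these but Dnajb5 was called by either tool. Without ARNI replicate 3, 54 were above 0 and the median was 0.09, and without ARNI replicate 2, 51 were above 0 and the median was 0.09. With library totals as the scaling, 50 were above 0, with medians of 0.09 for the members and -0.07 for all genes. The mitochondrial list had 9 of 9 above 0 with a median of 0.37. The ARNI group holds 1 library with ventricular markers and a low summed level of atrial markers. Hspb1 turned from 0.57 (SE 0.56) to -0.17 without ARNI replicate 3.

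**Figure D5:**
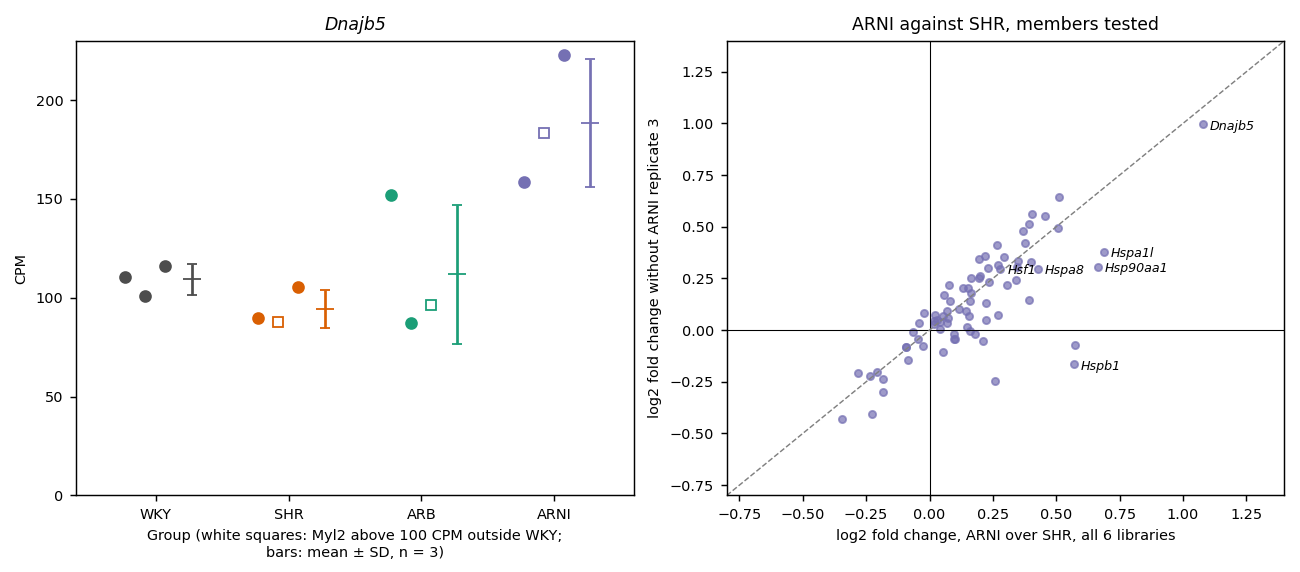
Left, CPM of Dnajb5 (y axis, from 0) in each library by group with the mean and SD (n = 3); the 3 ARNI libraries, at 159 to 223 CPM, are the highest. Right, log2 fold change of ARNI over SHR for the 77 members tested with all 6 libraries (x axis) and without ARNI replicate 3 (y axis), with the line of equality dashed; Dnajb5 stays near 1 and Hspb1 drops below 0.

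Between the ARNI and ARB groups edgeR called no gene (0% of 13948), and DESeq2 called 0 members. By edgeR 3 members had an unadjusted p under 0.05 (Dnajb5, Dnajc16 and Hsp90aa1). This was 3.90% of the members, near the 3.86% of all genes. This comparison shares the ARNI libraries with the one before, so the values are not independent of it. The largest differences were Hspa1b (log2 fold change 1.34, SE 1.16), Hspa1l (0.80, SE 0.33) and Dnajb5 (0.80, SE 0.27), each with an edgeR adjusted p of 0.993. The value of Hspa1b was 0.70 without ARNI replicate 3, 0.75 without ARB replicate 1 and 2.25 without ARB replicate 2. For Dnajb5 all ARNI libraries were above all ARB libraries, the closest being 159 and 152 CPM. Dnajb6, Hsf1 and Hspa1l were also higher without overlap (4 members in all, 5.19%, against 3% of all genes), and 0 members were lower, as 7.52% of all genes were. On TMM-scaled CPM 10 members did not overlap, in either direction (12.99%, against 10.5% of all genes), and Dnajb6 was not among them. Of the 77 members, 60 had a log2 fold change above 0, against 53.2% of all genes, with medians of 0.17 and 0.02. Scaling by library totals left 50 above 0, and without ARNI replicate 2 there were 53, with a median of 0.09.

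The share of all counts that fell on the members was 1.55% to 1.66% in WKY, 1.17% to 1.43% in SHR, 1.24% to 1.40% in ARB and 1.26% to 1.69% in ARNI. WKY lay above SHR and ARB without overlap, and ARNI spanned both. Hspb6 and Hspb7 together held 35.0% of the summed CPM of the members in WKY and 23.9% in SHR. Without these 2 genes the share was 1.01% to 1.06% in WKY and 0.936% to 1.03% in SHR, which overlapped. Within SHR and ARB the highest share belonged to the library with Myl2, and within ARNI to replicate 3.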

How the data were processed

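Left atrial RNA of 12 rats was sequenced in single-end reads of 50 bases. The authors filtered reads with SOAPnuke, aligned them with HISAT2 2.0.4 and Bowtie2 2.2.5 (versions from the submitters' processing notes, which name the build Rnor_6.0) and deposited the expected counts of RSEM, not normalized. Of these, 23.6% were not whole, because RSEM shares reads between similar genes. The deposited table also holds the authors' own log2 fold change and p-value of SHR over WKY, which were not used. It lists 37246 genes, 21239 of them with counts.

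Expected counts were rounded, filtered with filterByExpr, scaled by TMM and compared in the 6 libraries of each pair of groups by the quasi-likelihood test of edgeR (version 4.0.16 under R 4.3.3), with Benjamini-Hochberg adjustment over all genes tested. SEs were derived from the F statistic. A gene was called at an adjusted p of at most 0.05, and was a DEG if its log2 fold change was also 1 or more in size. CPM was computed on library totals. Alternatives were DESeq2 1.42.0, RLE factors, library totals, no filter, 1 fit of 12 libraries, single libraries left out, libraries with Myl2 above 100 CPM left out and a replicate block. The code of the fits was run on simulated counts with the same dispersion for all genes and no library set apart by chamber markers. That run says nothing of how the fits treat such libraries.

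Replicate numbers were compared by the correlation of deviations from group means across 14452 genes. For ARNI and SHR these were 0.51, 0.46 and 0.19, all above 0.1, but the labels give no pairing of rats. SHR replicate 2 and ARNI replicate 2 shared high Myl2, and SHR replicate 3 and ARNI replicate 3 shared high early genes. The part of these in the correlations was not tested, so same-numbered libraries were matched by number alone. For ARNI and SHR the block changed no call.

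Members and lists were chosen with earlier results of these data known. Named genes are those called in any comparison, the 8 with the most reads, Dnajb5, reference members of each class, the 3 largest differences in treated groups and the 3 most like Dnajb5. Nothing in the labels says more of the libraries than that each group has 3, so p-values measure the spread between these samples. Members were matched to RefSeq promoter windows by gene ID. The Hspa1b identifier is now named Hspa1a in GRCr8, and the Hspb11 identifier is now named Ift25. Figures were drawn with matplotlib 3.10.9 in Python 3.11.15.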

Additional observations from a re-analysis of the deposited data

How the results depend on the processing

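The number of members called between SHR and WKY, 15, was 23 with DESeq2, 9 without a filter on low counts, 3 in 1 fit of all 12 libraries and 29 without the libraries above 100 CPM of Myl2, and leaving out single libraries gave 0 to 29. Over all genes, the main fit called 2837 and DESeq2 called 3651. Without the filter 2507 genes were called, in the fit of all 12 libraries 1178, and without the Myl2 libraries 5310. With the replicate block 3 members (Bag2, Dnajc7 and Hspb3) and 1030 of all genes were called. The same-number correlations for these groups were 0.03, -0.05 and -0.07, so the numbers did not pair the libraries. RLE scaling and library totals called 17 members each, and 2855 and 3427 of all genes. Between ARNI and SHR, DESeq2 called 1 member in place of 0, and the replicate block changed no call. ARB against SHR and ARNI against ARB had 0 members called in every setting tried. On TMM-scaled CPM, members without overlap numbered 5 rather than 2 for ARB and SHR, 7 rather than 4 for ARNI and SHR, 10 rather than 4 for ARNI and ARB, and 35 rather than 33 for SHR and WKY (6.12%, 6.09%, 10.5% and 47.4% of all genes in the same order). Leaving out single libraries moved the log2 fold change between ARB and SHR from -1.67 to 0.16 for Hspa1b and from -0.59 to 0.078 for Dnajb1, both turning without SHR replicate 3. For Hspb1 between ARNI and SHR it ranged from -0.17 without ARNI replicate 3 to 1.07. Between SHR and WKY, Hsp90aa1 ranged from -0.33 to 0.047 (without SHR replicate 1) and Hspb1 from -0.13 (without SHR replicate 3) to 0.57. None of these was called. Leaving out both SHR replicate 3 and ARNI replicate 3 was chosen after seeing the data, and it left the median of the members between ARNI and SHR at 0.10. The causes of these changes were not tested. With 3 libraries a group and totals of 11252345 to 15823511 counts, 5 members were removed by the filter on low counts.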
